A study of Mus musculus with 2 samples.

Results

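A set of 10 genes of glutathione, thioredoxin and iron handling, of the 32285 genes in both count matrices, was followed in 3 cell classes of mouse subcutaneous tumours. The genes were chosen by name for their function, with earlier results of these data known. They are Slc7a11, Gclc, Gclm, Gss, Gsr, Gpx4, Txnrd1, Hmox1, Fth1 and Tfrc. The tumours came from mice fed a diet without serine and glycine (SG-free below) and from mice fed a control diet, with 1 single-cell library per diet. The droplet assay (10x Genomics) reads gene expression and T cell receptor (TCR) sequences from the same cells. The labels give the tissue as tumour and name no strain, tumour line, sex, age, number of mice or time on the diet. With 1 library per diet there was no replicate check, so no test between diets was made, and a difference between these libraries cannot be told apart from a difference between tumours. Every interval below is a 95% interval that covers counting error only.

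Glutathione is a tripeptide of glutamate, cysteine and glycine, and serine is a source of both glycine and cysteine in cells. It is the main soluble thiol that detoxifies peroxides, and the thioredoxin system works beside it with its own NADPH-dependent reductase. Iron links both systems to lipid peroxidation, since free iron drives peroxide chemistry, ferritin stores iron safely, the transferrin receptor imports it and haem oxygenase releases it from haem. Many of these genes share the transcription factor Nrf2, which binds antioxidant response elements in promoters, and Slc7a11 is also a known target of ATF4, the factor that responds to amino acid shortage.

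Promoter sequences are shown for the members that carry a match to either element, because several members below have different levels in the libraries. RefSeq promoter entries (GRCm38.p6) were present for 7 of the 10 members, and Gclc, Gsr and Hmox1 are named only. Windows of 250 bases before each transcript start were searched on both strands for TGACNNNGC, the core of the antioxidant response element, and for TGATGNAA, the core of the element bound by ATF4 with C/EBP factors. The sequences run 5′ to 3′ on the strand of the gene, with matches in capitals. Gclm is shown for the first 180 bases of its window, which end where the annotated gene begins.
Slc7a11, chr3:50443614-50443863, minus strand, inside the annotated gene span: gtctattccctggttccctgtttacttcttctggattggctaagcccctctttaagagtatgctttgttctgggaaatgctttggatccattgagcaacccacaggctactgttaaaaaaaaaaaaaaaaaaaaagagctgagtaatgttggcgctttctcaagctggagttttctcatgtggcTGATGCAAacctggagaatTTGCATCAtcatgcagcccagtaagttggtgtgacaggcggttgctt
Gclm, chr3:122245307-122245486, plus strand, before the annotated gene: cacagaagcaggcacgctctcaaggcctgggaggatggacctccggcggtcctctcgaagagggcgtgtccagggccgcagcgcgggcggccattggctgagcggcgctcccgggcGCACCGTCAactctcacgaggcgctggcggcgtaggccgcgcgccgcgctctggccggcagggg
Txnrd1, chr10:82858956-82859205, plus strand, inside the annotated gene span: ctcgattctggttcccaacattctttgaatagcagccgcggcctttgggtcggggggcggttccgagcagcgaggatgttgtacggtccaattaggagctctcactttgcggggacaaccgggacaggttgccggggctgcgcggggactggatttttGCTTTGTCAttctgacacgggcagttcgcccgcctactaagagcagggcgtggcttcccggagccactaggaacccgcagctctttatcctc
The antioxidant core was matched in 2 of the 14 windows of the members, 1 for Gclm and 1 for Txnrd1, and in 10.2% of all 32851 promoter windows of that length. The amino acid element was matched in 1 member window, that of Slc7a11, and in 3.45% of all windows. Slc7a11 held 2 matches on opposite strands, starting 66 and 47 bases before the transcript start. A match describes letters and not a bound site.

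The SG-free library held 7999 barcodes and the control library 8466, with 157234945 and 161332426 unique molecular identifiers (UMIs, each a captured RNA molecule). A filter of 300 or more genes and no more than 20% of UMIs from mitochondria left 7913 barcodes in the SG-free and 8262 in the control library, and 104 barcode sequences occurred in both. T cells were barcodes with a TCR beta contig (243 SG-free, 242 control). Macrophages were barcodes with C1qa, C1qb and C1qc at 0.1% of UMIs or more and no Krt20 (632 and 694). The class named tumour cells had at least 1 Krt20 UMI and no Ptprc, the pan-leukocyte gene (4613 and 4121). It was divided by Car9, a carbonic anhydrase that hypoxia induces, into Car9-high cells with 2 or more UMIs (868 and 334) and Car9-negative cells (3395 and 3487). Levels are CPM, the UMIs of a gene per 1000000 UMIs of the summed class. The median gene had a log2 CPM ratio between the diets of -0.109 in macrophages and -0.101 in Krt20-positive cells, so the ratios below are to be read relative to that shift.

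The class names were checked against fixed markers. The sum of 9 T cell markers was 4205 CPM in SG-free and 2916 CPM in control T cells, and at most 21.3 CPM in the other classes. The sum of 9 macrophage markers was 25086 and 22762 CPM in macrophages. It includes C1qa, C1qb and C1qc, which also chose the class, so the sum is no independent check. Of the markers outside the rule, Cd68 was at 1201 and 1195 CPM there, against 10.4 and 8.80 CPM in the Krt20-positive class. Csf1r was at 360.4 and 469.8 CPM, against 0.684 and 0.948 CPM. In the Krt20-positive class most other epithelial markers were below 1 CPM, such as Krt8 at 0.303 and 0.653 CPM and Epcam at 0 and 0.0092 CPM. Krt18 was the exception at 19.6 and 24.1 CPM, against 0.993 and 1.11 CPM in macrophages. Dcn, a gene of connective tissue cells, was at 496.5 CPM in the SG-free and 259.6 CPM in the control class. Apart from Krt20 itself and Krt18, the epithelial markers thus do not bear out the name tumour cell, and the class is called Krt20-positive cells below.

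The T cell class held RNA of other cells. Krt20 UMIs occurred in 29 of 243 SG-free T cell barcodes (11.9%) and in 17 of 242 control ones (7.02%), and these barcodes carried 43.4% and 31.9% of the UMIs of the class. T cell results are therefore also given for the 202 and 212 barcodes without Krt20 and C1q UMIs. Dcn in those barcodes was still at 24.5% (SG-free) and 89.6% (control) of its level in Krt20-positive cells. Red cell markers summed to 0.80 CPM in SG-free and 908.5 CPM in control T cells, and to 0.284 and 340.5 CPM in macrophages. In macrophages Dcn stood at 20.7% (SG-free) and 41.7% (control) of its level in Krt20-positive cells. Col1a1, a collagen gene, stood at 21.7% and 82.5%, and Krt18 at 5.07% and 4.59%. What part such RNA had in the member levels of macrophages was not tested. T cells were deeper in the SG-free library, with a median of 5845 UMIs against 2754 in the control library.

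The class with the highest level differed by the gene's role.

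**Figure D1:**
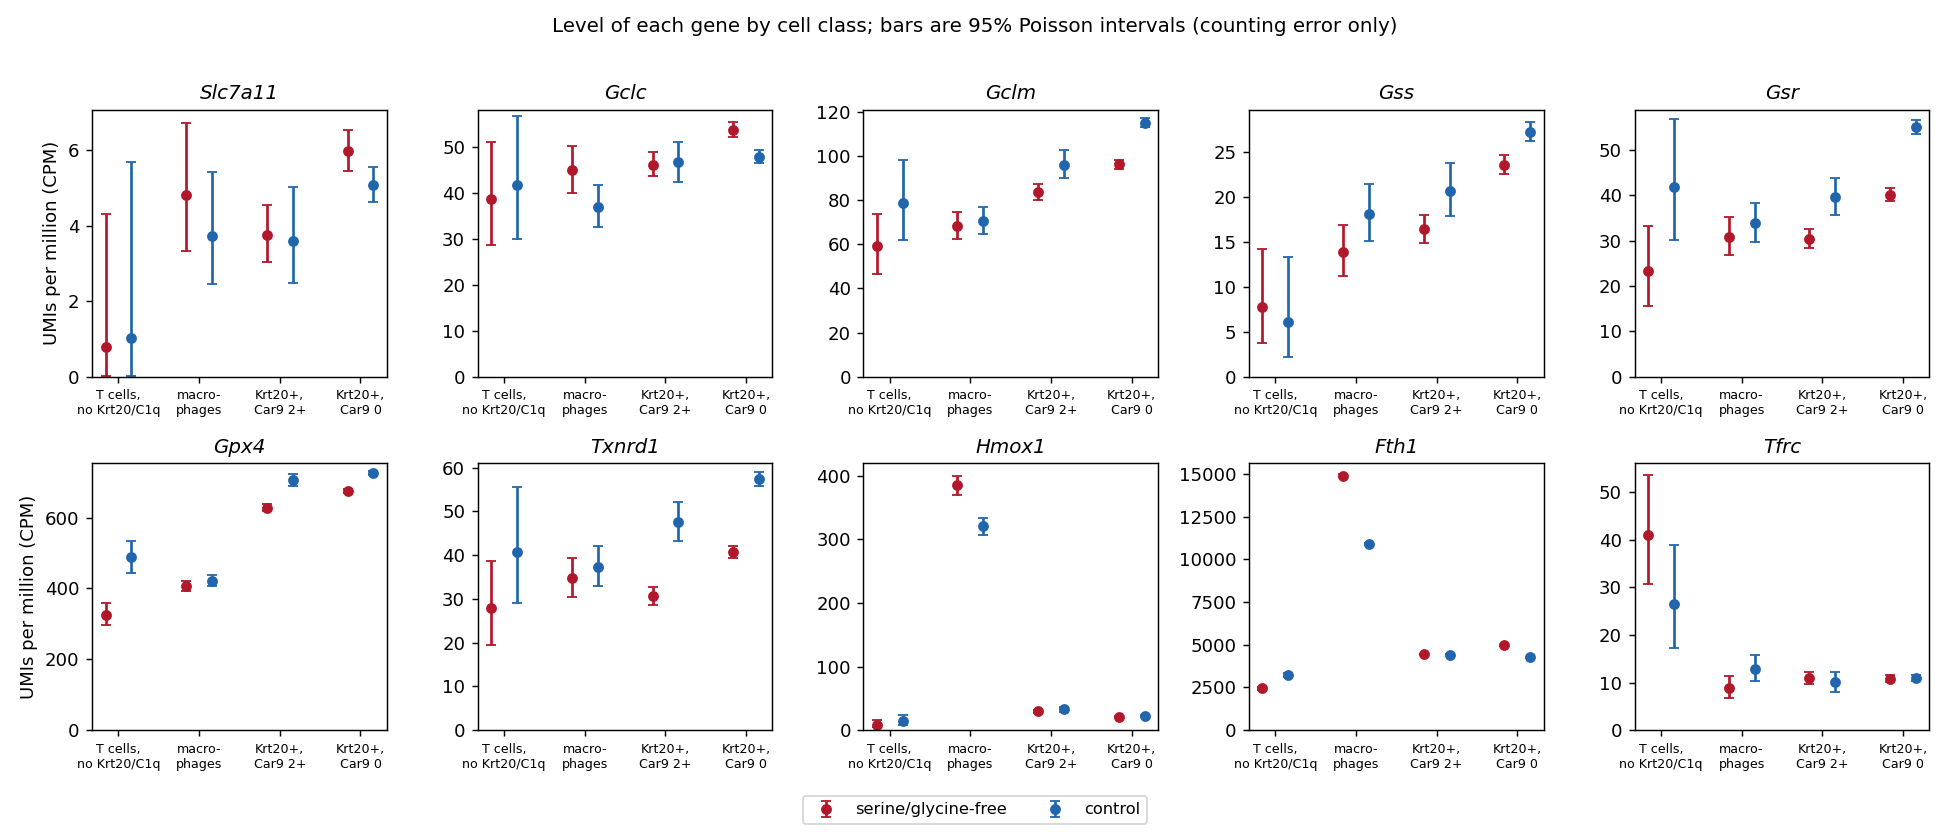
Level of each of the 10 genes (y axis, CPM from 0) by cell class (x axis), with the SG-free library in red to the left of the control library in blue; points are class sums and bars 95% Poisson intervals. Hmox1 at 385.1 and 320.4 CPM and Fth1 at 14887 and 10897 CPM stand highest in macrophages, and Tfrc in T cells, shown here without barcodes that hold Krt20 or C1q UMIs.

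Haem oxygenase 1 (Hmox1), which breaks haem into iron, carbon monoxide and biliverdin, was a macrophage transcript. Its level was 385.1 CPM in SG-free macrophages and 320.4 CPM in control macrophages. Krt20-positive cells had 23.4 and 24.2 CPM, so macrophages were 16.5-fold higher (15.6 to 17.4) in SG-free and 13.2-fold higher (12.5 to 13.98) in control tumours. T cells without Krt20 and C1q UMIs had the lowest levels, 8.53 CPM (11 UMIs) and 14.3 CPM (14 UMIs). After thinning each cell to 1000 UMIs, Hmox1 was seen in 21.8% of SG-free and 20.6% of control macrophages, against 0.51% and 1.01% of those T cells. Without thinning, 65.8% and 61.8% of macrophages had a Hmox1 UMI, at median depths of 10472 and 9585 UMIs.

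Ferritin heavy chain (Fth1), the iron-oxidising subunit of the iron store, followed the same order. It stood at 14887 CPM in SG-free and 10897 CPM in control macrophages, at 4802 and 4269 CPM in Krt20-positive cells, and at 2444 and 3210 CPM in T cells without Krt20 and C1q UMIs. Macrophages thus exceeded Krt20-positive cells 3.10-fold (3.08 to 3.12) in the SG-free and 2.55-fold (2.53 to 2.57) in the control library. Near-identical pseudogenes of Fth1 and of Gpx4 exist in the mouse, so the assignment of reads between such copies is uncertain.

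The transferrin receptor (Tfrc), which brings iron into dividing and activated cells, was highest in T cells. T cells without Krt20 and C1q UMIs had 41.1 CPM (53 UMIs) in the SG-free and 26.5 CPM (26 UMIs) in the control library. Krt20-positive cells had 10.8 and 10.7 CPM, and macrophages had 8.93 and 12.9 CPM. Those T cells exceeded Krt20-positive cells 3.79-fold (2.83 to 4.99) in the SG-free and 2.48-fold (1.61 to 3.65) in the control library, while the order of macrophages and Krt20-positive cells was not settled in either library, since both intervals of their ratio held 1.

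Phospholipid hydroperoxide glutathione peroxidase (Gpx4), which reduces lipid peroxides with glutathione and restrains ferroptosis, was highest in Krt20-positive cells at 663.3 CPM (SG-free) and 724 CPM (control). Macrophages had 407.4 and 422.3 CPM, a ratio to Krt20-positive cells of 0.614 (0.592 to 0.638) and 0.583 (0.562 to 0.605). T cells without Krt20 and C1q UMIs had 326.4 and 487.6 CPM, so that the order of macrophages and T cells turned between the libraries.

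Of the genes that make and recycle glutathione, Gclm and Gss were also highest in Krt20-positive cells. Gclm, the modifier subunit of the rate-limiting glutamate-cysteine ligase, had 92.3 and 112.1 CPM there, against 68.2 and 70.6 CPM in macrophages. Gss, glutathione synthetase, which adds the glycine, had 21.9 and 26.4 CPM in Krt20-positive cells and 13.9 and 18.1 CPM in macrophages. T cells without Krt20 and C1q UMIs had 7.75 CPM of Gss from 10 UMIs and 6.12 CPM from 6 UMIs; the interval of the ratio of macrophages over these T cells held 1 in the SG-free library (0.934 to 3.85) and not in the control library (1.32 to 8.20). The catalytic subunit gene Gclc lay between 37.0 and 51.6 CPM over macrophages, Krt20-positive cells and these T cells of both libraries. In the control library the intervals of these T cells over Krt20-positive cells held 1 for Gclc (0.627 to 1.19) and Gsr (0.566 to 1.07). Slc7a11, the cystine importer of system xc-, was sparse everywhere: 5.28 and 4.94 CPM in Krt20-positive cells, 4.82 and 3.73 CPM in macrophages, and 1 UMI in each library among T cells without Krt20 and C1q UMIs. At this depth its level in T cells could not be compared between the diets.

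In Krt20-positive cells both NADPH-dependent reductases had lower levels in the SG-free library, and they did so under every alternative setting that was run. Thioredoxin reductase 1 (Txnrd1), which recharges cytosolic thioredoxin, had 37.7 CPM (36.6 to 38.9) in the SG-free library and 55.7 CPM (54.3 to 57.1) in the control library, which is a ratio of 0.678 (0.652 to 0.705). Glutathione reductase (Gsr), which regenerates reduced glutathione, had 37.6 CPM (36.5 to 38.7) and 53.0 CPM (51.6 to 54.4), a ratio of 0.710 (0.682 to 0.738). Their log2 ratios of -0.51 and -0.45, taken of CPM plus 5, lay below the fifth percentile of all genes with a mean of 20 CPM or more, which was -0.38. Gclm had a ratio of 0.823 (0.802 to 0.845), Gss of 0.828 (0.785 to 0.874) and Gpx4 of 0.916 (0.907 to 0.925). The remaining members were near or above 1: Hmox1 at 0.965 (0.914 to 1.018), Tfrc at 1.01 (0.935 to 1.10), Slc7a11 at 1.07 (0.950 to 1.20), Gclc at 1.08 (1.04 to 1.12) and Fth1 at 1.125 (1.120 to 1.129). Hmox1 kept its direction in 7 of 13 alternatives, with log2 ratios from -0.19 to 0.15, so its direction is not settled. It turned above 1 with median-ratio scaling, with the mean of each cell's CPM, without the cells with most UMIs, without C1q UMIs, in cells of 10000 to 30000 UMIs, and in cells chosen without regard to Krt20. Slc7a11 kept its direction in 11 of 13 and Tfrc in 12 of 13.

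**Figure D2:**
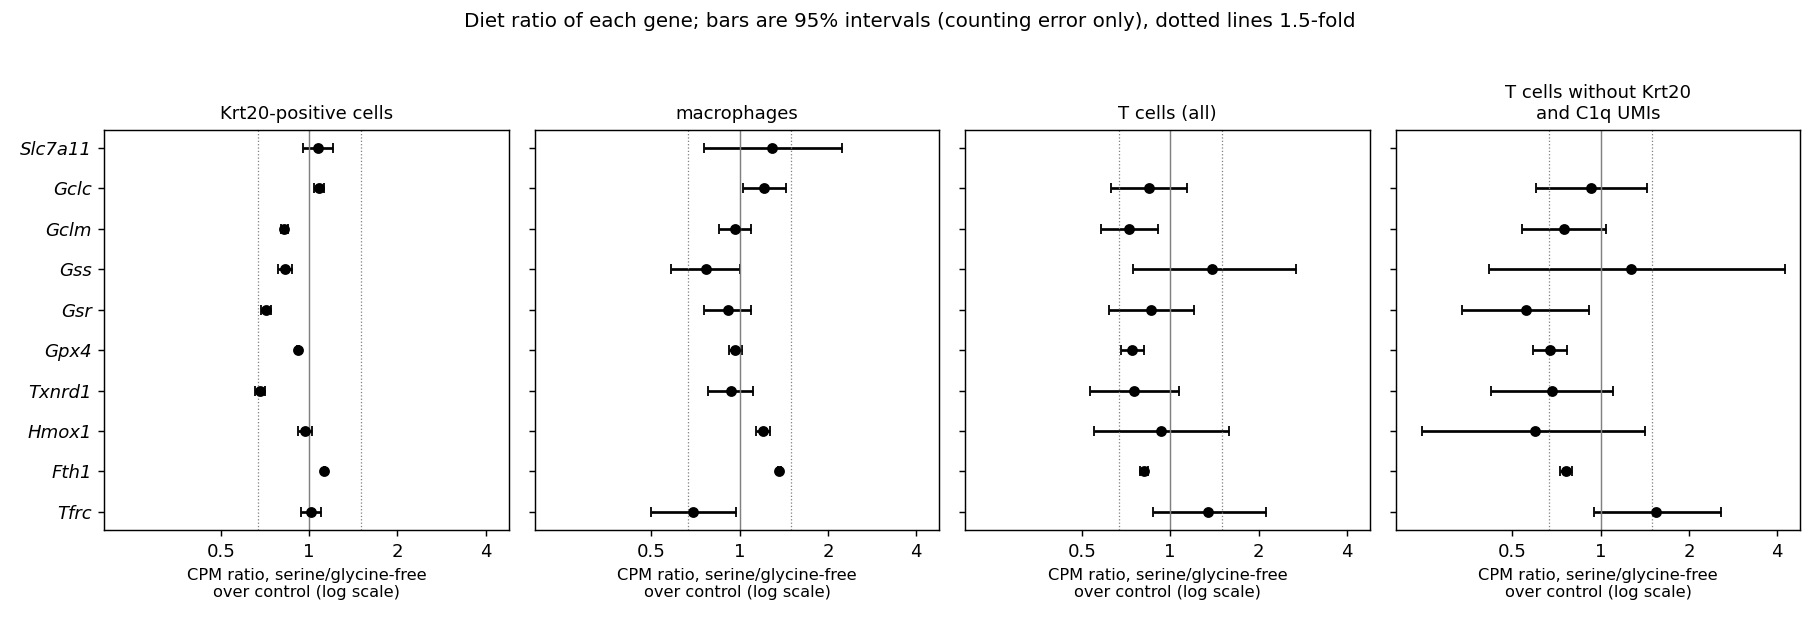
Ratio of CPM in the SG-free over the control library (x axis, log scale) for each gene (y axis) in 4 cell classes; bars are 95% intervals for counting error, dotted lines mark 1.5-fold, and genes with under 6 UMIs in a library are left out. Txnrd1 (0.678) and Gsr (0.710) lie lowest in Krt20-positive cells and Fth1 (1.37) highest in macrophages.

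None of the 10 members reached a ratio of (CPM + 5) of 1.5 in either direction in this class, where 1.79% of the 5462 genes measured were at least 1.5-fold higher and 0.677% at least 1.5-fold lower. At 1.25-fold, a threshold added after the values were seen, Gsr and Txnrd1 were lower, 2 of 10 against 9.63% of all genes, and no member was higher against 5.46%. A ratio under 1 was found for 6 of 10 members and for 68.6% of all genes. The median log2 ratio was -0.084 over the members and -0.091 over all genes, so the set as a whole stood where the other genes stood. The summed level of 6 cell cycle genes was also lower in SG-free Krt20-positive cells, at 707.2 against 921.5 CPM, and its part in the lower reductase levels was not tested. Of the 10, 8 had a mean of 20 CPM or more, and Slc7a11 and Tfrc were below it.

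**Figure D3:**
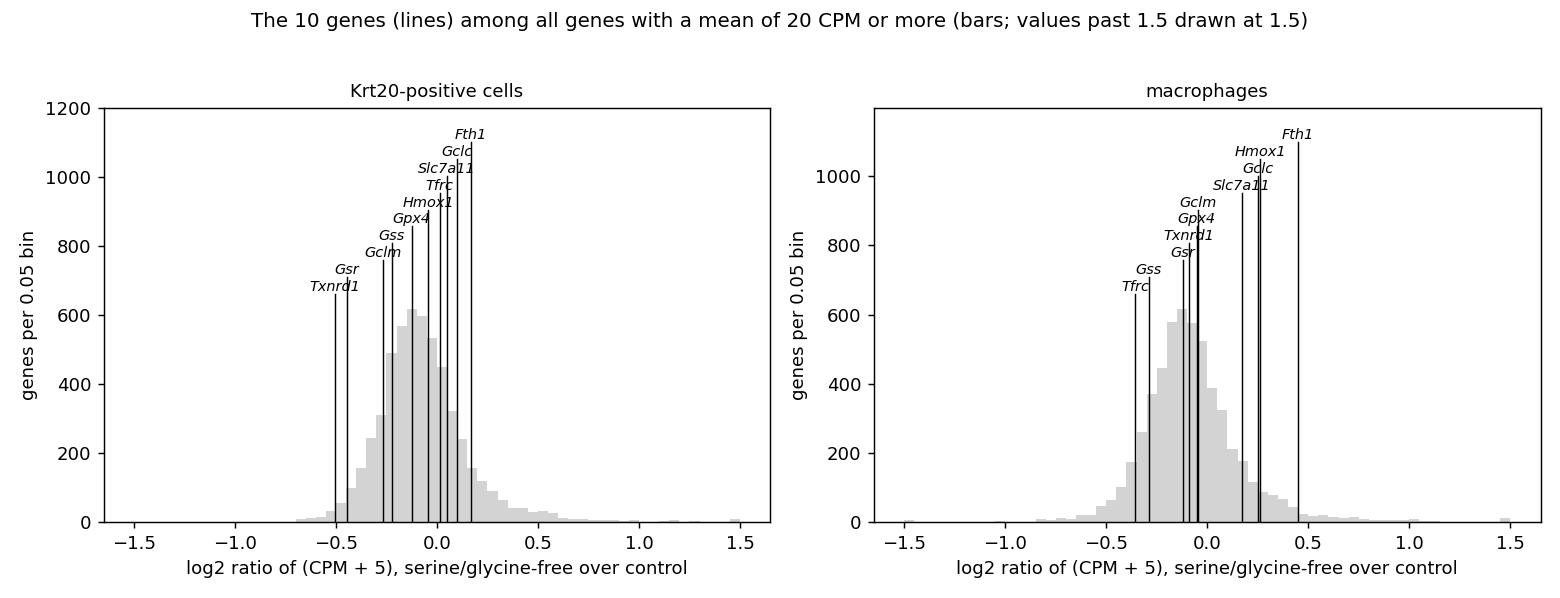
Log2 ratio of (CPM + 5), SG-free over control (x axis), for all genes with a mean of 20 CPM or more as grey bars (y axis, genes per bin of 0.05) and for the 10 members as lines, in Krt20-positive cells and macrophages. Txnrd1 and Gsr lie in the lower tail at -0.51 and -0.45 and Fth1 of macrophages in the upper tail at 0.45, while most members lie within the bulk.

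The difference in the reductases was also present as a share of cells. With each Krt20-positive cell thinned to 5000 UMIs, Txnrd1 was seen in 16% of 4539 SG-free cells (14.9 to 17.1, exact binomial) and in 22.5% of 4064 control cells (21.2 to 23.8). Gsr was seen in 15.2% (14.2 to 16.3) and 21.5% (20.3 to 22.8) of these cells, and Gclm in 34.3% (32.9 to 35.7) and 40.3% (38.8 to 41.9). Unthinned, Txnrd1 was in 51.6% and 66.4% of cells, at median depths of 23206 and 25087 UMIs. Thinned alike, macrophages had Txnrd1 in 14.5% and 13.9% of cells and Gsr in 13.2% and 14.6%, with overlapping intervals between the diets.

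Car9-high cells made up 18.8% (17.7 to 20.0) of Krt20-positive cells in SG-free and 8.1% (7.29 to 8.98) in control tumours, so the diet ratios were taken again within each Car9 group. Txnrd1 in Car9-high cells had 30.6 CPM (SG-free) and 47.5 CPM (control), a ratio of 0.644 (0.573 to 0.724). In Car9-negative cells it had 40.8 and 57.4 CPM, a ratio of 0.710 (0.679 to 0.742). Gsr had ratios of 0.768 (0.679 to 0.871) in Car9-high and 0.728 (0.696 to 0.761) in Car9-negative cells. In Car9-high cells the log2 ratio of Gsr was -0.332 and ran from -0.37 to -0.0581 over 11 alternatives, so its size was not settled. The lower reductase levels were thus seen within both groups. Hypoxia genes also differed between the libraries within the groups. The sum of 9 such genes, Car9 among them, was 10295 (SG-free) against 8782 CPM (control) in Car9-high cells. In Car9-negative cells it was 4423 against 3664 CPM. The part of hypoxia in the reductase ratios within the groups was not tested. Gpx4, Gclm and Gss were below 1 in both groups as well, at 0.889, 0.870 and 0.795 in Car9-high cells, where Gss turned above 1 with Car9 at 5 UMIs or more, and at 0.931, 0.836 and 0.864 in Car9-negative cells. Fth1 was at 4446 CPM in SG-free and 4416 CPM in control Car9-high cells, a ratio of 1.01 (0.996 to 1.018), and at 4957 and 4262 CPM in Car9-negative cells, a ratio of 1.16 (1.16 to 1.17). Gclc had 0.990 (0.887 to 1.11) in Car9-high, which turned above 1 with median-ratio scaling and with Car9 at 5 UMIs or more, and 1.12 (1.08 to 1.17) in Car9-negative cells. These intervals of Gclc overlap, and the difference between the Car9 groups was not tested for either gene. No member passed 1.5-fold in Car9-high cells (1.53% of all genes higher, 0.738% lower) or in Car9-negative cells (2.14% higher, 0.543% lower). At 1.25-fold, Gsr and Txnrd1 were the members lower in each group (7.96% of all genes in Car9-high, 7.79% in Car9-negative cells) and no member was higher (4.33% and 6.17%). A ratio under 1 was counted for 7 of 10 members in each group, against 65.5% of all genes in Car9-high and 66.6% in Car9-negative cells.

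The spread of Fth1 between cells of the Car9-negative group was wider in the SG-free library. The quartiles were 2512 and 6838 CPM in the SG-free library, with a median of 3776 CPM, and 2822 and 5135 CPM in the control library, with a median of 3735 CPM. The higher summed level thus came with a similar median cell and a longer upper tail, with a 90th percentile of 13324 CPM against 7404 CPM.

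Within each library, Car9-high cells were set against Car9-negative cells of the same class, and a known hypoxia gene outside the rule served as a check: Pgk1, a glycolytic kinase, was 2.97-fold higher in Car9-high cells of the SG-free and 3.17-fold higher in those of the control library. Hmox1 was the one member higher in Car9-high cells of both libraries. It had 29.7 CPM in Car9-high against 21.1 CPM in Car9-negative cells of the SG-free library, a ratio of 1.41 (1.29 to 1.53). In the control library it had 32.5 against 23.1 CPM, a ratio of 1.41 (1.246 to 1.59). The summed macrophage markers were also higher in Car9-high cells, at 67.1 against 44.2 CPM (SG-free) and 76.5 against 50.4 CPM (control), set beside 25086 and 22762 CPM in macrophages, and their part in the Hmox1 difference was not tested.

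**Figure D4:**
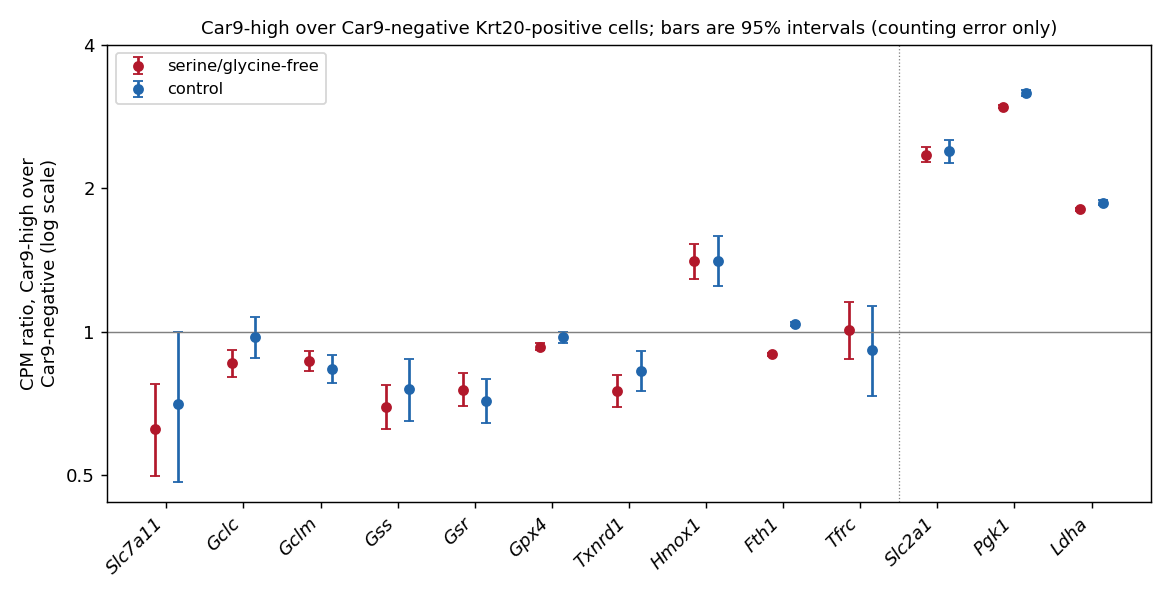
Ratio of CPM in Car9-high over Car9-negative Krt20-positive cells (y axis, log scale) for the 10 members and 3 hypoxia genes right of the dotted line, SG-free in red left of control in blue; bars are 95% intervals for counting error. Hmox1 stands at 1.41 in both libraries, and Gss, Gsr, Txnrd1, Gclm and Slc7a11 lie below 1.

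Gss, Gsr, Txnrd1 and Gclm were lower in Car9-high cells of both libraries, with intervals below 1. The median log2 ratio of (CPM + 5) over all genes was itself -0.121 in the SG-free and -0.119 in the control library. All 4 genes lay above the fifth percentiles of all genes, -0.487 and -0.446. Gclm, at -0.191 and -0.249, was the nearest of them to the median in the SG-free library. The ratio of Gss was 0.697 (0.626 to 0.774) in the SG-free and 0.757 (0.651 to 0.876) in the control library. Gsr had 0.757 (0.699 to 0.818) and 0.717 (0.644 to 0.796), Txnrd1 had 0.751 (0.694 to 0.811) and 0.828 (0.750 to 0.912), and Gclm had 0.870 (0.829 to 0.912) and 0.835 (0.779 to 0.894). Slc7a11 had 3.75 against 5.99 CPM in the SG-free library, a ratio of 0.626 (0.499 to 0.779), and 3.59 against 5.08 CPM in the control library, where the interval of 0.483 to 1.001 held 1. Fth1 went opposite ways, at 0.897 (0.891 to 0.903) in the SG-free and 1.04 (1.03 to 1.05) in the control library, and the control ratio turned below 1 with Car9 at 5 UMIs or more. Gpx4, at 0.930 and 0.974, turned above 1 in both libraries under median-ratio scaling, as did Gclc and Tfrc in the control library. In the control library Gclc and Gpx4 also turned without mitochondrial and ribosomal protein genes in the total, and Tfrc in cells of 10000 to 30000 UMIs. No member passed 1.5-fold in either library, where 1.4% and 1.37% of all genes were higher and 2.07% and 1.35% lower by that much. Of the 10, 8 had a ratio under 1 in each library, close to the 71.4% and 73.6% of all genes.

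In macrophages Fth1 and Hmox1 were higher in the SG-free library, while Tfrc, the other iron member, was lower. Fth1 had a ratio of 1.37 (1.35 to 1.38) and Hmox1 of 1.20 (1.14 to 1.27). The median macrophage held 11186 CPM of Fth1 in the SG-free library (quartiles 7900 and 16887) and 9153 CPM in the control library (6777 and 12987). Gclc was higher at 44.95 against 37.0 CPM, a ratio of 1.21 (1.03 to 1.43). Tfrc was lower at 8.93 CPM (63 UMIs) against 12.9 CPM (93 UMIs), a ratio of 0.695 (0.497 to 0.968). Gss had a ratio of 0.768 with an interval of 0.585 to 1.01. For Gclm, Gsr, Gpx4, Txnrd1 and Slc7a11 the interval of the ratio held 1, and under median-ratio scaling the ratios of Gclm, Gpx4 and Txnrd1 lay just above 1, as did Gclm with the mean of each cell's CPM. For the reductases of macrophages the intervals held 1, and whether macrophages and Krt20-positive cells differ in this was not tested: Txnrd1 had 0.931 (0.780 to 1.11) and Gsr 0.909 (0.754 to 1.10). No member passed 1.5-fold, with 2.16% of the 5522 genes higher and 1.43% lower. At 1.25-fold Fth1 was higher (6.12% of all genes) and Tfrc lower (11.1%). Tfrc, Gss and Slc7a11 were below the mean of 20 CPM that the genes behind these shares have. The summed cell cycle genes were also lower in SG-free macrophages, at 460.8 against 648 CPM, and their part in the lower Tfrc was not tested. The median log2 ratio of the members was -0.049 and that of all genes -0.099, and Fth1 at 0.45 lay above the 95th percentile of all genes, 0.36. In macrophages without a haemoglobin UMI, 632 and 684 cells, the log2 ratios of Fth1 and Hmox1 were 0.45 and 0.26.

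The 2 libraries differed in the kind of macrophage they held. The class II antigen-presentation genes took a median of 0.391% of UMIs in SG-free and 0.0182% in control macrophages. A cut at the joint median of 0.0711% left 187 class II-low and 445 class II-high cells in the SG-free library, and 476 and 218 in the control library. Near the cut, within a factor of 2, lay 90 and 114 cells, so the groups are ranges and not types. Hmox1 was higher in class II-low cells in both libraries, with 443.2 against 356.9 CPM (SG-free, ratio 1.24, 1.15 to 1.34) and 363.2 against 200.6 CPM (control, ratio 1.81, 1.62 to 2.03). The SG-free library had fewer class II-low macrophages, and its Hmox1 was higher within each group: 1.22-fold (1.13 to 1.32) in class II-low and 1.78-fold (1.59 to 1.99) in class II-high cells. Fth1 was 1.37-fold (1.36 to 1.39) and 1.44-fold (1.42 to 1.46) higher within these groups. The lower Tfrc of SG-free macrophages was not settled within either group, since both intervals held 1. Its ratio was 0.722 (0.442 to 1.144) in class II-low cells, from 25 and 80 UMIs. In class II-high cells it was 1.176 (0.613 to 2.405), from 38 and 13 UMIs. Within the groups, monocyte genes also differed between the libraries. Ly6c2 and Ccr2 were at 92.9 and 78.2 CPM in SG-free class II-high cells, against 231.5 and 178.1 CPM in control ones. In class II-low cells they were at 2.60 and 31.7 CPM (SG-free) against 19.7 and 75.8 CPM (control). Their part in the Hmox1 and Fth1 differences was not tested.

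**Figure D5:**
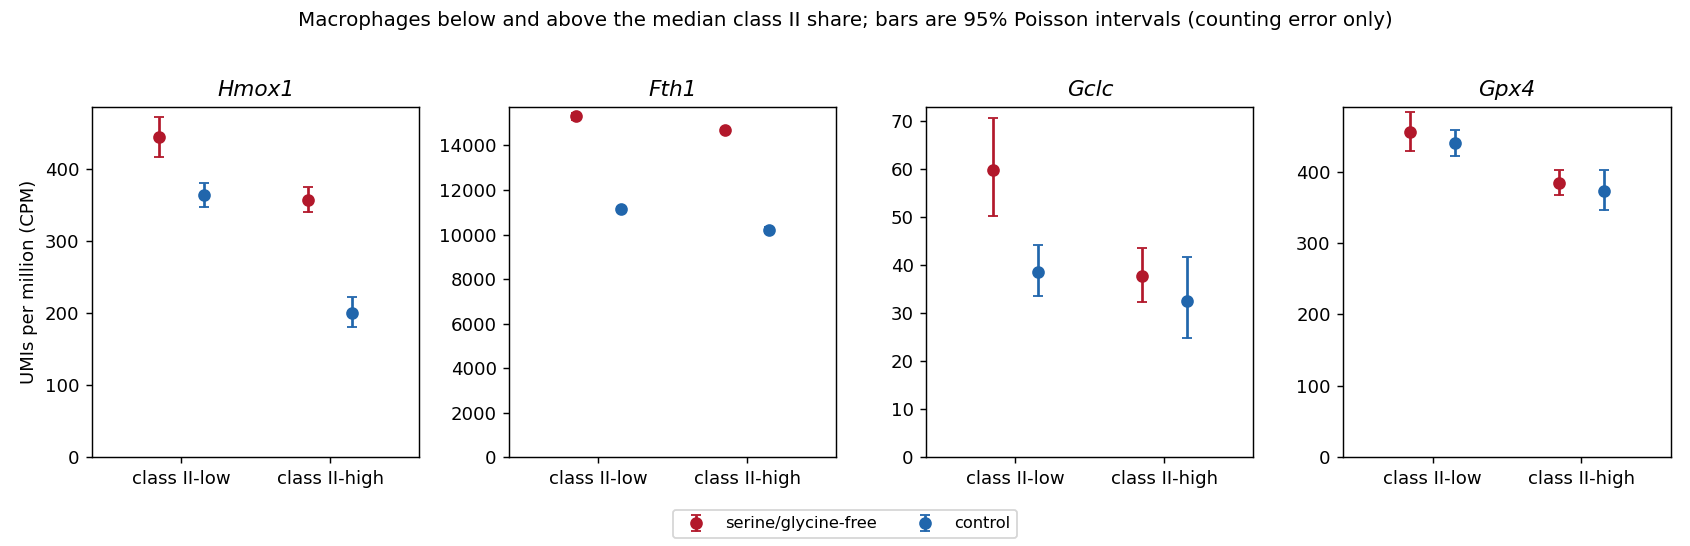
Level (y axis, CPM from 0) of 4 members in class II-low and class II-high macrophages (x axis), SG-free in red left of control in blue; bars are 95% Poisson intervals. Hmox1 and Fth1 are higher in the SG-free library within both groups, while Gpx4 points of the 2 libraries lie close together.

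The ligase subunits were higher in class II-low macrophages of the SG-free library, where Gclc had 59.8 against 37.7 CPM (ratio 1.59, 1.26 to 1.99) and Gclm 83.7 against 60.7 CPM (1.38, 1.14 to 1.66). In the control library their ratios were 1.19 (0.892 to 1.61) and 0.968 (0.794 to 1.19). Gpx4 was 1.19-fold and 1.18-fold higher in class II-low cells of the SG-free and control libraries. At 1.5-fold, 1 member was higher in class II-low cells of the SG-free library (2.3% of all genes) and 2 in those of the control library (1.64%), and none was lower (2.99% and 2.12%). These were Gclc in the SG-free library, and Hmox1 and Tfrc in the control library. Tfrc there rested on 80 UMIs in class II-low and 13 in class II-high cells, and its mean was below 20 CPM. Red cell RNA in the control library lay in class II-low macrophages, with Hbb-bs at 356.1 CPM there and 1.05 CPM in class II-high ones, and its part in the control ratios was not tested. Between the diets, 1 member passed 1.5-fold in class II-high cells, Hmox1 (2.17% of all genes higher, 3.03% lower), and none in class II-low cells on the CPM + 5 scale (1.67% and 1.78%); Gclc there had 59.8 against 38.7 CPM, a plain ratio of 1.55 (1.24 to 1.93).

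The 2 libraries also differed in the kind of T cell they held. Of barcodes without Krt20 and C1q UMIs, 132 of 202 SG-free and 63 of 212 control ones were CD8 cells. These had a Cd8a or Cd8b1 UMI and no Cd4 UMI. Cd8a stood at 666 against 270.3 CPM and Cd4 at 39.5 against 73.5 CPM in those barcodes. The part of this mix in the T cell ratios was not tested. In the whole T cell class 8 of 10 members had a ratio under 1, against 56.7% of all genes. For Gclm, Gpx4 and Fth1 the interval lay below 1, and for Slc7a11, Gclc, Gsr, Txnrd1 and Hmox1 it held 1. Gpx4 had 429.9 CPM (SG-free) and 578.3 CPM (control) in the whole class, a ratio of 0.743 (0.680 to 0.813), and 326.4 and 487.6 CPM without Krt20 and C1q barcodes, a ratio of 0.669 (0.586 to 0.765). With each cell thinned to 1000 UMIs the Gpx4 difference of the whole class was not seen: 32.5% of 237 SG-free and 32.8% of 229 control T cells had a UMI, with means of 0.409 and 0.41 UMIs per cell and 6 and 13 shallower cells left out. Unthinned, 77% and 67.4% of T cells had a Gpx4 UMI. Thinned alike, T cells without Krt20 and C1q UMIs had Gpx4 in 28.6% (22.4 to 35.4) and 36.2% (29.5 to 43.3), with overlapping intervals. In CD8 T cells with the Krt20 and C1q barcodes kept, the log2 ratio of Gpx4 was -0.079. Gclm had 69.7 and 95.97 CPM in the whole class, a ratio of 0.726 (0.581 to 0.908), which became 0.750 (0.539 to 1.04) without those barcodes. Tfrc was one of 2 members above 1, at 1.35 (0.873 to 2.12) in the whole class and 1.55 (0.952 to 2.58) without them; the other, Gss, rested on 35 and 16 UMIs. Fth1 had a ratio of 0.815 (0.788 to 0.842) and, without those barcodes, 0.761 (0.724 to 0.800). Thinned to 1000 UMIs, Fth1 was seen in 76.8% (70.9 to 82) of SG-free and 88.2% (83.3 to 92.1) of control T cells. In T cells without Krt20 and C1q UMIs the shares were 79.1% (72.7 to 84.6) and 84.9% (79.2 to 89.6), with overlapping intervals.
The direction for Fth1 turned in CD8 T cells. Among barcodes with a Cd8a or Cd8b1 UMI, no Cd4 UMI and no Krt20 or C1q UMI, 132 SG-free and 63 control cells, Fth1 had 2265 and 1961 CPM, a ratio of 1.16 (1.06 to 1.26). These levels were below the 2444 and 3210 CPM of all T cells without Krt20 and C1q UMIs. The part of the larger CD8 share of the SG-free library in the Fth1 ratio of those T cells was not tested. Gpx4 in these CD8 cells had 323.6 and 426.9 CPM, a ratio of 0.758 (0.620 to 0.930), and Gsr 26.3 and 51.8 CPM (27 and 17 UMIs), a ratio of 0.508 (0.267 to 0.993). This selection of CD8 cells was added after the values were seen.
No member passed 1.5-fold in the whole T cell class, against 3.34% of 5967 genes higher and 5.2% lower. Without Krt20 and C1q barcodes, 1 member was lower, Gsr with 23.3 against 41.8 CPM (30 and 41 UMIs), against 9.73% of genes, and none higher against 7.72%. Without those barcodes 8 of 10 members were again under 1, against 50.3% of all genes. The median log2 ratio of the members was -0.26 in the whole class and -0.39 without them, against -0.047 and -0.003 for all genes. In the CD8 cells it was -0.20 against -0.050, with 2 members at least 1.5-fold higher (Gss, at 7 UMIs against 0, and Tfrc; 10.8% of all genes), 3 lower (Gsr, Gclm and Txnrd1; 15.7%) and 5 under 1 (54.2%). In T cells without Krt20 and C1q UMIs, Dcn, a mark of other cells' RNA here, was at 121.7 CPM (SG-free) against 232.6 CPM (control). Red cell markers there were at 0.775 against 1468 CPM. The part of that RNA in the lower member levels was not tested. Monocyte markers summed to 947.5 against 1750 CPM in the same T cells. Most of that sum was Ly6c2, at 611.7 and 1466 CPM. Macrophages had 63.4 and 75.6 CPM of Ly6c2. Monocytes were not among the classes followed here, and the part of their RNA in that sum was not tested. In the CD8 cells, Dcn stood at 30.2% and 7.05% of its level in Krt20-positive cells, the reverse order, and red cell markers at 0.975 and 0 CPM.

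The wider pathways were read from 6 lists of related genes, chosen with earlier results of these data known, and few genes passed 1.5-fold. Genes named from them that did not pass it were chosen after their values were seen. In Krt20-positive cells the thioredoxin and peroxiredoxin list had 19 of 23 genes measured, of which none passed 1.5-fold and 15 had a ratio under 1, against 68.6% of all genes. Prdx1, a peroxidase that thioredoxin recharges, had 664.9 CPM (SG-free) and 874.5 CPM (control), a ratio of 0.760 (0.753 to 0.768). Srxn1, which repairs over-oxidised peroxiredoxins and is an Nrf2 target, had 20.0 and 30.3 CPM, a ratio of 0.661 (0.626 to 0.697). Glrx, a glutathione-dependent reductase, was higher at 97.8 against 65.2 CPM, a ratio of 1.5 (1.46 to 1.55) that is below 1.5-fold on the CPM + 5 scale. Nfe2l2, the gene of Nrf2 itself, had 88.6 and 105.5 CPM, a ratio of 0.840 (0.817 to 0.862). Of 15 measured genes on the Nrf2 list 11 were under 1, and Maff, a small Maf partner of Nrf2, passed 1.5-fold at 52.8 against 31.9 CPM. On the iron and haem list 9 of 15 were under 1, and the copper ferroxidase gene Cp was 2.82-fold higher (2.66 to 2.99) at 39.8 against 14.1 CPM. Glutathione synthesis and turnover had 7 of 9 under 1, glutathione transferases 7 of 9, and ferroptosis 6 of 6, with none past 1.5-fold. Chac1, which degrades glutathione and is an ATF4 target, lay below the 20 CPM minimum and is named here after its values were seen: 10.4 CPM in SG-free and 18.4 CPM in control Krt20-positive cells, a ratio of 0.564 (0.524 to 0.606).

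In macrophages 3 list genes were at least 1.5-fold higher (2.16% of all genes) and 2 lower (1.43%), each named here. Ftl1, Blvrb and Nfe2l2 did not pass it. Ftl1, the light chain that builds the ferritin shell with Fth1, had 954.2 CPM (SG-free) and 846.5 CPM (control), a ratio of 1.13 (1.09 to 1.17). Blvrb, a biliverdin reductase that acts after haem oxygenase, had 396.7 and 302.9 CPM, a ratio of 1.31 (1.24 to 1.39), and Nfe2l2 had 168.4 and 122.7 CPM, a ratio of 1.37 (1.26 to 1.5). Cd163, the scavenger receptor for haemoglobin bound to haptoglobin, was lower at 8.93 against 34.8 CPM, a ratio of 0.257 (0.192 to 0.339). Steap3, an endosomal ferrireductase, had 13.2 and 27.4 CPM, a ratio of 0.482 (0.373 to 0.620). Higher were Cp (26.1 against 14.4 CPM, ratio 1.82), Glrx (271.1 against 174.5 CPM, ratio 1.55) and Ptgs2, the inducible prostaglandin synthase used as a ferroptosis marker (47.5 against 20.6 CPM, ratio 2.31, 1.90 to 2.82). Of the measured genes, 8 of 18 iron and haem genes were above 1, as were 3 of 13 on the Nrf2 list, 6 of 19 thioredoxin genes, 2 of 6 synthesis genes, 2 of 5 transferases and 3 of 6 ferroptosis genes; 69.7% of all genes were under 1. Cd163 was lower in the SG-free library within both class II groups, at 14.3 against 40.5 CPM in class II-low and 6.32 against 18.9 CPM in class II-high cells.

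In T cells without Krt20 and C1q UMIs, 9.73% of all genes were at least 1.5-fold lower and 7.72% higher. Of 8 measured synthesis genes 3 were lower and none higher, of 5 transferases 1 was lower and 1 higher, and of 17 thioredoxin and peroxiredoxin genes 2 were lower and 1 higher. The Nrf2, iron and haem, and ferroptosis lists, with 10, 12 and 6 measured genes, had 1 lower each and none higher. Those genes were Nfe2l2, Blvrb and Ptgs2, and Glrx was lower on the thioredoxin and peroxiredoxin list. All of them had ratios above 1 in macrophages. Among the transferases Mgst3 was lower and Gstt2 higher, and Gpx8 was among the lower synthesis genes. Gpx1, the main cytosolic glutathione peroxidase, had 243.5 CPM (SG-free) and 414.2 CPM (control), a ratio of 0.588 (0.506 to 0.683). Prdx4, an endoplasmic reticulum peroxiredoxin, had 43.4 and 112.2 CPM, a ratio of 0.387 (0.275 to 0.539). Txnip, which binds and inhibits thioredoxin, was higher at 300.1 against 161.2 CPM, a ratio of 1.86 (1.54 to 2.25). Gpx8, Prdx4 and Mgst3 had 143.1, 182 and 240.2 CPM in SG-free Krt20-positive cells, which is above their level in these T cells, as in the control library at 148.6, 228.7 and 276.9 CPM. In the whole T cell class, the list genes Gstm2 and Slc39a14 were at least 1.5-fold lower, against 5.2% of all genes.

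The members were compared by how they varied over the 8 sums of T cells, macrophages, Car9-high and Car9-negative cells in both libraries. These sums share library and total, so the correlations of log2 (CPM + 5) are descriptions with no test. Hmox1 and Fth1 went together with r = 0.98, and Gclm went with Gpx4 (0.93), Gsr (0.85) and Txnrd1 (0.82). Gsr and Txnrd1 had r = 0.89. Tfrc and Slc7a11 were opposed at -0.84. Among 5829 genes, the pattern most like that of Hmox1 belonged to Mmp13, Ogfrl1 and Ctsz (r = 0.99 each), and that of Fth1 was nearest to Acsl1 (0.998), Rrbp1 and Ninj1. The nearest gene was Anapc11 for Txnrd1 (0.96), Snx15 for Gsr (0.98), Aifm1 for Gclm (0.98), Sertad2 for Gpx4 (0.99), B4galnt1 for Tfrc (0.98), Dpp9 for Gss (0.97), Ext1 for Slc7a11 (0.94) and Dnajb12 for Gclc (0.89).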

How the data were processed

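Single-cell libraries of mouse tumours, 1 per diet, were used as deposited: matrices of UMI counts per gene and barcode and lists of TCR contigs, made with Cell Ranger 7.1.0 per the file headers (version 2.2.2 and build mm10 per the submitters' processing notes). The labels' extraction text describes human heart, whereas organism, source and design give mouse tumour. Counts were summed per class and library and scaled to CPM without 663 TCR and immunoglobulin genes. Ratios have exact conditional binomial intervals, levels exact Poisson and shares exact Clopper-Pearson intervals, all for counting error only. PCR copies were already merged by UMI. A gene was counted as past a threshold at a (CPM + 5) ratio of 1.5, and the background is all genes with a mean of 20 CPM or more. The members and lists were chosen with earlier results of these data known. Named are all members, up to 2 list genes per direction past 1.5-fold with 30 or more counts, and the nearest 3 genes by correlation, of which some are printed. Other list genes named (Prdx1, Srxn1, Ftl1, Chac1, Nfe2l2 and Blvrb outside T cells, and Glrx in Krt20-positive cells) were chosen after their values were seen. Doublets were not called; removing the 10% of cells with most UMIs was an alternative, beside other cell filters, pseudocounts, scalings, class rules and depths. Scripts were tested on simulated data. Python 3.11.15, numpy 2.4.6, scipy 1.17.1, pandas 2.3.3 and matplotlib 3.10.9 were used. Promoters came from RefSeq (GRCm38.p6).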

Additional observations from a re-analysis of the deposited data

Results flagged for a closer look

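Fth1 lay on opposite sides of 1 in different classes. Its ratio of SG-free over control was 1.366 in macrophages and 1.125 in Krt20-positive cells, against 0.8145 in T cells. In CD8 T cells without Krt20 and C1q UMIs it was 1.155. The difference between classes was not tested.

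Fth1 also lay on opposite sides of 1 between Car9-high and Car9-negative cells, with a ratio of 0.897 in the SG-free and 1.036 in the control library. This difference between the libraries was not tested, and each library is 1 sample.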

How the results depend on the processing

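No paired analysis was possible because each diet has 1 library, and for the same reason no replicate could be left out. Of the counts of members at least 1.5-fold higher, at least 1.5-fold lower or under 1, 222 kept within 1.5 times the main count across alternatives and 18 did not. In T cells the count lower became 1 with a pseudocount of 1 CPM, 1 without Krt20 and C1q UMIs, 1 in CD8 cells, and, in settings chosen after seeing the data, 1 without Krt20, C1q and haemoglobin UMIs and 2 without Krt20, C1q, Dcn and Col1a1 UMIs. With the mean of each cell's CPM, 1 was higher and 1 lower. In CD8 cells without Krt20 and C1q UMIs, also chosen after seeing the data, 2 were higher, 3 lower and 5 under 1. In macrophages 3 were under 1 with median-ratio scaling. In Car9-high cells 1 was lower with a pseudocount of 1 CPM and 1 lower in cells of 10000 to 30000 UMIs. For Car9-high over Car9-negative cells, 1 was higher at 10000 to 30000 UMIs in the SG-free and 1 in the control library; in the control library 1 was higher with the split after thinning to 10000 UMIs, 2 were lower with Car9 at 5 UMIs or more, and 5 were under 1 with median-ratio scaling. The cause was not tested. Depth limits Slc7a11, Gss and Hmox1 in T cells.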
